A study of Mus musculus with 20 samples.

Results

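The Sox transcription factors of neural progenitors were followed while spherical neural masses, derived from mouse embryonic stem cells, differentiated to neurons. A control line and a line with HPRT knocked down were used. The genes were Sox1, Sox2, Sox3, Sox21, Sox4, Sox11, Sox5, Sox6 and Sox9, taken by gene symbol from every table. All 9 were found among the 37561 genes shared by the 28 tables. All 9 also passed the filter on low values, a typical log2 normalised count of at least 4, with 13457 genes in all.

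Sox proteins bind DNA through a conserved HMG box and act with partner factors on shared target genes. Sox1, Sox2 and Sox3 form the SoxB1 group, which holds neural cells in the progenitor state, and Sox21 is a SoxB2 repressor that acts against them. Sox4 and Sox11 are SoxC factors that turn on neuronal genes as progenitors leave the cycle. The SoxD factors Sox5 and Sox6 and the SoxE factor Sox9 are best known in the nervous system for neuronal subtype timing and for the glial lineage.

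Both lines came from D3 embryonic stem cells of strain 129s2/SvPas, which were maintained on mouse embryo fibroblast feeders and differentiated as spherical neural masses toward dopaminergic neurons. Day 0 was already the spherical neural mass stage per the sample titles, so no library came from undifferentiated stem cells. Per the labels, the control line carried a retrovirus with an shRNA against luciferase and the HPRT knockdown line one with an shRNA against HPRT, the purine salvage enzyme. The study's methods call the vectors lentiviral, name the human HPRT gene as the target of the hairpin and state that infected cells were selected with puromycin. Libraries were made for each of days 0 to 4 and then at intervals of 2 days up to day 14, giving 20, 10 per line and 1 per line and day, each from RNAs pooled at a time point. The sources used here name no second infection of either line, so the days served as the repeats, and all p-values measure the spread between days of the same lines. The study left day 6 out of its pathway tests as discrepant, and it is likewise left out of the tests here. Its values are given separately for the 9 Sox genes.

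The deposited values were log2 ratios within a table of 2 libraries, so that each ratio below is the HPRT knockdown over the control on 1 day unless stated otherwise. Numbers of reads were inferred from these ratios for 7 of the 9 genes and are given as normalised reads, that is reads divided by the size factor of the library; no test uses them. On simulated tables that had not been used to set the rules of this inference, most but not all of the genes found had the right reads, so that each level is an estimate that could be wrong by a constant factor. Log2 size factors of the libraries ranged from -0.3549 to 0.6069. Hprt itself had a mean ratio of -4.00 ± 0.89 (SD, n = 9 days), and none of the 10 days was above -2.53. The median ratio of all genes passing the filter lay between -0.0291 and 0.0160 on every day. Closure of the tables around neighboring days was exact to 1e-05 for at least 91.4% of genes in every loop but that of days 3 and 4, where it was 0.0594%. The same-day tables of days 3 and 4 also enter loops that closed, and the ratios between the lines come from the same-day tables.

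The libraries held reads of 50 bases, and the most similar part of these genes is the HMG box. The start of the box in each coding sequence is shown because it is where reads of one Sox gene could be taken for another; capitals mark bases that differ from Sox2.
Sox1: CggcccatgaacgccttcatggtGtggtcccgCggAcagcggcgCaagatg
Sox2: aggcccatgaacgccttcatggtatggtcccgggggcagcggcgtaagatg
Sox3: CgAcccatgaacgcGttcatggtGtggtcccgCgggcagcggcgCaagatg
Sox21: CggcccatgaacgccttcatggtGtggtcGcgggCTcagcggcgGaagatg
Sox4: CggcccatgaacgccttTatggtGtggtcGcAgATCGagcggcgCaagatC
Sox11: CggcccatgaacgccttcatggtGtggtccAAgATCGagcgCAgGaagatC
Sox5: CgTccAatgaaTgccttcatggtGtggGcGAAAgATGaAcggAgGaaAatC
Sox6: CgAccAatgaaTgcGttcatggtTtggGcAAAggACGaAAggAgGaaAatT
Sox9: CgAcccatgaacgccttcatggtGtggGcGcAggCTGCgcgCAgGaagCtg
Within these 51 bases the closest pair, Sox1 and Sox3, differed at 3 bases, and the most distant pairs at 19. Within groups, Sox1 and Sox2 differed at 5 bases, Sox4 and Sox11 at 6 and Sox5 and Sox6 at 8. Of all runs of 50 bases in the annotated protein-coding transcripts, none of Sox2, Sox3, Sox21, Sox4, Sox11, Sox6 or Sox9 occurred exactly in such a transcript of another gene. Runs with mismatches were not searched. The annotated model of Sox11 holds 2013 bases against 8451 in RefSeq, and only the former were searched here and for overlaps. Sox5 shared 18 of its 8194 runs, and Sox1 had no transcript in the annotation used. Overlap with other genes was on the opposite strand. An antisense gene covered 713 of the 3799 exonic bases of Sox21, another 2616 of the 4795 of Sox4 and a further one 1330 of the 14376 of Sox5, and with a library kit that does not mark the strand their reads cannot be told apart.

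The levels of the Sox genes within a line were compared per length. The order of Sox2 and Sox11 depended on the gene model, and RefSeq gene lengths are used first. With these, Sox2 had the highest median in the control line, 1187 normalised reads per kilobase with days from 638.5 to 1518. Sox11 followed with a median of 819.3 and a range of 546.3 to 1309. Sox2 was above Sox11 on 8 of 10 days, and Sox11 above Sox3 on 10 of 10. Sox3 had a median of 313.4, Sox9 of 266.9, Sox21 of 263.5 and Sox1 of 260.1 normalised reads per kilobase, and the ranges of these 4 genes overlapped. Sox5 stood apart at a median of 9.88, with no day above 10.84. In the HPRT knockdown line Sox2 led again, with a median of 1627 normalised reads per kilobase, and its lowest day, 1259, was above every day of the other 6 genes placed. Sox9 was next at 370.1, and Sox11, Sox21, Sox1 and Sox3 followed at 274.6, 232.7, 205.3 and 185.9 with overlapping ranges. Sox5 was again lowest at 15.07. The length of Sox11 was 8451 bases and that of Sox2 2467 in RefSeq, whereas the GENCODE M1 models whose coordinates are given here hold 2013 and 2457 exonic bases. With the latter lengths, an alternative chosen after seeing the data, the order was turned in the control line: Sox11 had a median of 3440 normalised reads per kilobase against 1192 for Sox2 and was above it on 10 of 10 days. In the knockdown line the medians were then 1153 for Sox11 and 1633 for Sox2, with Sox11 above on 3 of 10 days. The reads of Sox11 came through the kind of inference that was wrong most often on simulated tables, and its place in this order is the least certain. The place of Sox2 also rests on an estimate. It was inferred with 1 library at whole reads, against 4 to 12 for Sox1, Sox3, Sox21, Sox5 and Sox9. Sox4 and Sox6 are not placed because their reads could not be inferred.

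**Figure D1:**
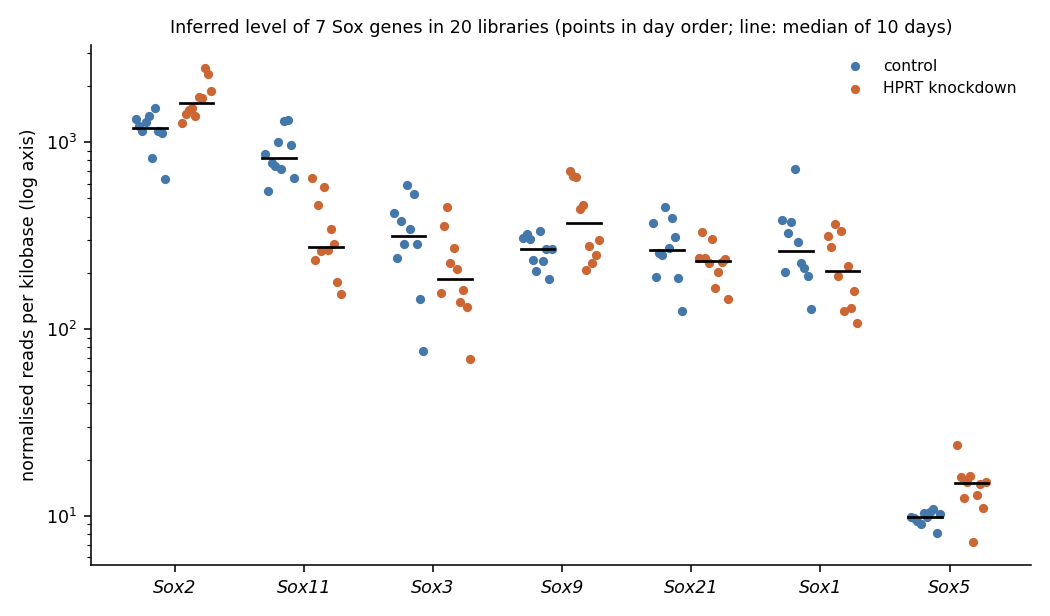
Normalised reads per kilobase on a log axis for 7 Sox genes in the control line (blue) and the HPRT knockdown line (orange), 1 point per library in day order and a line at the median of 10 days. Lengths are RefSeq gene lengths or, for Sox5 and Sox9, GENCODE M1 exons; with these Sox2 has the highest median in both lines, although Sox11 lies above it in the control with its GENCODE M1 length. The median of Sox11 is 819.3 in the control and 274.6 in the knockdown, and Sox5 is below every other gene shown.

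The lines were then compared day by day. By limma with Benjamini-Hochberg adjustment over all genes, 6 of the 9 Sox genes differed, 5 of them higher and 1 lower in the knockdown. Among all genes passing the filter, 52.9% were called, 26.4% higher and 26.5% lower. The share of the Sox genes called was thus not far from that of genes at large. The genes higher in the knockdown were Sox2, Sox4, Sox5, Sox6 and Sox9, and the gene lower was Sox11. Sox1, Sox3 and Sox21 did not pass the threshold. Ratios were above 0 on all 9 days for Sox5 and Sox6 and below 0 for Sox11, where 14.2% of all genes were higher and 15.3% lower on all 9, 29.6% together.

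**Figure D2:**
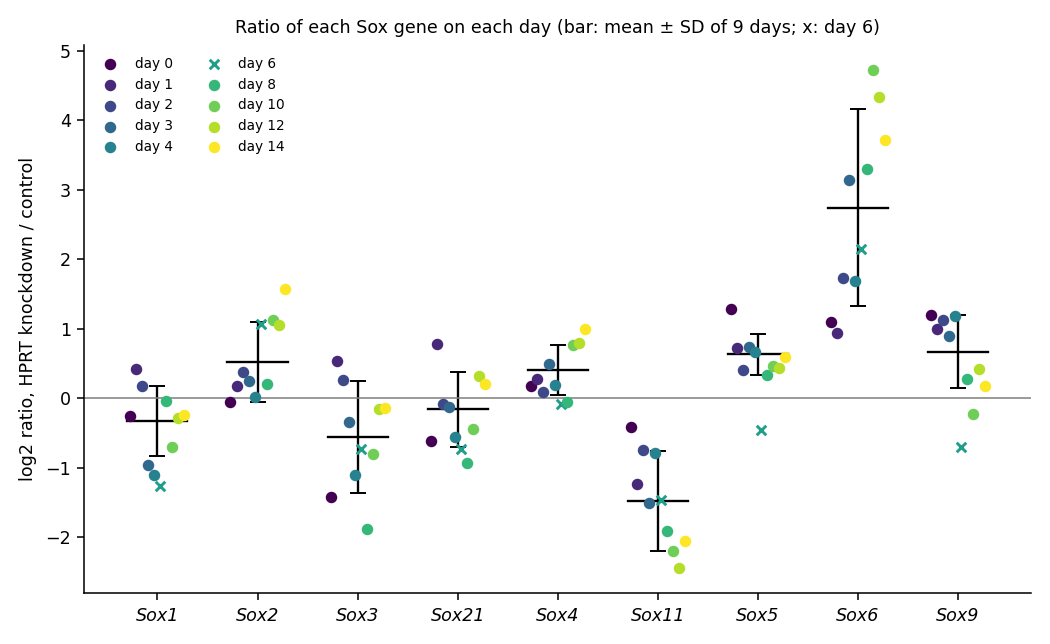
Log2 ratio of the HPRT knockdown over the control for each Sox gene, with 1 point per day colored from day 0 to day 14, a cross for day 6, and a bar for the mean and SD of the other 9 days. Every point of Sox6 lies above 0 and every point of Sox11 below it, whereas every other gene has points on both sides of 0.

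Sox2 (Gene ID 20674, NCBIM37 chromosome 3, 34548927 to 34551383, plus strand, a single exon; box start at chr3:34549470-34549520) was the SoxB1 gene that was higher in the knockdown. Normalised reads of Sox2 in the control were 1575 at the lowest, 2928 at the median and 3746 at the highest of 10 days, and in the knockdown 3106, 4014 and 6135. The ranges overlapped, but within days the knockdown was higher on every day except day 0. On day 4 the ratio of Sox2 was only 0.01, less than its standard error from reads alone, 0.032 to 0.040 over the days. Its ratio was between -0.06 and 0.38 from day 0 to day 4 and 0.21 on day 8. Days 10, 12 and 14 had ratios of 1.12, 1.05 and 1.57, and day 6 one of 1.07. Averaged, the ratio came to 0.52 ± 0.57 (SD, n = 9 days), 1.44 times the control, with a limma adjusted p of 0.0307 and an exact sign-flip permutation p of 0.0117, two-sided. The call rests on the late days: without day 10, 12 or 14 the limma adjusted p was 0.0693, 0.0698 and 0.0529. The ratio of Sox2 rose by 0.099 ± 0.020 (SE) per day on the log2 scale, with a limma adjusted p of 0.0155. Without day 14 that slope had an adjusted p of 0.0718, and against log2(day + 1) in place of day one of 0.0514.

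Sox1 (Gene ID 20664, NCBIM37 chromosome 8, start site at 12395519, plus strand; box start at chr8:12396517-12396567) was placed by an exact match of its RefSeq promoter. Its normalised reads were 518.3, 1050 and 2885 at the lowest, median and highest day of the control and 432.7, 828.8 and 1468 in the knockdown. The ratio was above 0 on days 1 and 2 and below 0 on the other 8 days, down to -1.10 on day 4 and -1.27 on day 6. The mean of -0.33 ± 0.50 (SD, n = 9 days) did not pass, with a limma adjusted p of 0.0986; without day 1 it was -0.43 with an adjusted p of 0.0394.

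Sox3 (Gene ID 20675, NCBIM37 chromosome X, 58144545 to 58146605, minus strand; box start at chrX:58146120-58146170) had 157.9, 647.1 and 1217 normalised reads at the lowest, median and highest day of the control and 142.4, 384.1 and 927.8 in the knockdown. Its ratio ran from -1.89 on day 8 to 0.54 on day 1 and was below 0 on 8 of 10 days. The mean of -0.56 ± 0.80 (SD, n = 9 days) gave a limma adjusted p of 0.0745, and without day 1 a mean of -0.70 with 0.0342.

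Sox21 (Gene ID 223227, NCBIM37 chromosome 14, 118632454 to 118636252, minus strand; box start at chr14:118634780-118634830) had a median of 1001 normalised reads in the control, with days from 476.3 to 1706. In the knockdown the median was 883.5, with days from 546.8 to 1249. Ratios went from -0.94 on day 8 to 0.78 on day 1, and the mean was -0.16 ± 0.54 (SD, n = 9 days) with a limma adjusted p of 0.434.

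The members of the SoxB groups were compared with each other, since a difference of ratios within a table does not depend on how the libraries are scaled. Over 7 pairs, tested by exact sign-flip permutation over 9 days with Benjamini-Hochberg adjustment, the ratio of Sox1 was below that of Sox2 by a mean difference of -0.86 ± 0.76 (SD, n = 9 days; adjusted exact p = 0.0219). Sox2 was above Sox3 by 1.08 ± 0.83 (adjusted exact p = 0.0205). It was above Sox21 by 0.68 ± 0.64, with an adjusted exact p of 0.0273 that became 0.0547 without day 8, 10, 12 or 14. Between Sox1 and Sox3 no difference passed the test; the daily differences lay between -0.62 and 1.86, with a mean of 0.23 ± 0.77 and an exact adjusted p of 0.477. Thus the 3 SoxB1 genes did not share 1 ratio between the lines: Sox2 was higher relative to each of the others.

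**Figure D3:**
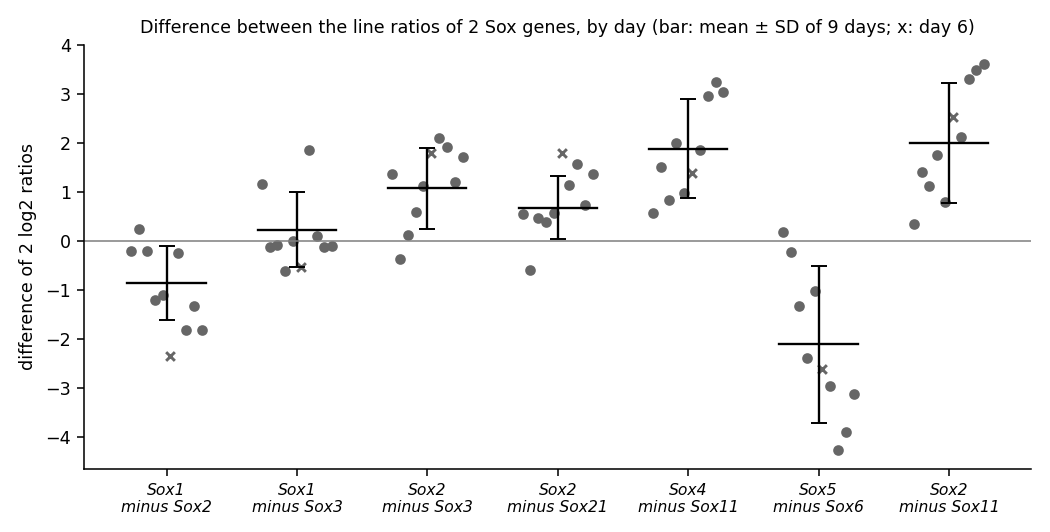
Difference between the log2 ratios of the lines for 7 pairs of Sox genes, 1 point per day, a cross for day 6, and a bar for the mean and SD of 9 days. Sox4 minus Sox11 and Sox2 minus Sox11 are above 0 on all 9 days, and Sox1 minus Sox3 is spread around 0.

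Sox11 (Gene ID 20666, NCBIM37 chromosome 12, 28025562 to 28027574, minus strand; box start at chr12:28027073-28027123) was the member that was lower in the knockdown. It had 4616 normalised reads at the lowest, 6924 at the median and 11065 at the highest day of the control, and 1300, 2321 and 5425 in the knockdown. The ranges touched through the knockdown libraries of days 0 and 4, but the knockdown was lower on 10 of 10 days. The ratio was -0.41 on day 0, between -1.51 and -0.74 on days 1 to 4, and -1.47 on day 6. Days 8, 10, 12 and 14 had ratios of -1.91, -2.20, -2.45 and -2.05. The mean of -1.48 ± 0.72 (SD, n = 9 days) left the knockdown at 35.9% of the control, with a limma adjusted p of 0.000497 and an exact sign-flip permutation p of 0.00391, the smallest that 9 days allow. The ratio changed by -0.124 ± 0.024 (SE) per day, with a limma adjusted p of 0.0155, which became 0.0562 without day 12.

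Sox4 (Gene ID 20677, NCBIM37 chromosome 13, 29040788 to 29045582, minus strand; box start at chr13:29044660-29044710), the other SoxC gene, moved the other way. Its ratio was between 0.09 and 0.49 on days 0 to 4, -0.08 on day 6 and -0.05 on day 8. It was 0.76, 0.79 and 1.00 on days 10, 12 and 14. The mean of 0.41 ± 0.36 (SD, n = 9 days), 1.33 times the control, passed with a limma adjusted p of 0.0146. With the lines compared without pairing the libraries of a day it was 0.43, with an adjusted p of 0.107. The ratio of Sox4 exceeded that of Sox11 on 9 of 9 days, by a mean of 1.89 ± 1.01 (SD, n = 9 days; adjusted exact p = 0.0137). Sox2 exceeded Sox11 on 9 of 9 days as well, by 2.00 ± 1.22 (adjusted exact p = 0.0137).

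Sox6 (Gene ID 20679, NCBIM37 chromosome 7, 122614858 to 123182258, minus strand; box start at chr7:122633226-122633276) had the largest ratio of the 9 genes. Its log2 ratios on days 0 to 4 were 1.10, 0.94, 1.73, 3.14 and 1.68. Day 6 had 2.15, and days 8, 10, 12 and 14 had 3.30, 4.73, 4.34 and 3.71. All 4 of these late days lay above every earlier day. The mean of 2.74 ± 1.42 (SD, n = 9 days) was 6.69 times the control, with a limma adjusted p of 0.000594 and an exact sign-flip permutation p of 0.00391. Its ratio rose by 0.240 ± 0.047 (SE) per day, with a limma adjusted p of 0.0154 that was 0.053 without day 12. The tables gave slightly different values for Sox6, by up to 0.0217 on the log2 scale outside the loop of days 3 and 4, which is small beside these ratios.

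Sox5 (Gene ID 20678, NCBIM37 chromosome 6, 143776945 to 144730497, minus strand; box start at chr6:143789743-143789793), the SoxD partner of Sox6, was the least abundant of the 7 genes with inferred reads, which leave out Sox6. It had 116.6, 142 and 155.8 normalised reads at the lowest, median and highest day of the control. In the knockdown the values were 104.7, 216.6 and 345, the lowest on day 6. The ratio was highest on day 0, at 1.29, and between 0.33 and 0.74 on the other days tested; on day 6 it was -0.46. The mean of 0.63 ± 0.29 (SD, n = 9 days) was 1.54 times the control, with a limma adjusted p of 0.000647 and an exact permutation p of 0.00391. Sox5 was below Sox6 by a mean difference of ratios of -2.11 ± 1.60 (SD, n = 9 days; adjusted exact p = 0.0182), and above it on day 0 alone.

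Sox9 (Gene ID 20682, NCBIM37 chromosome 11, 112643538 to 112649074, plus strand, 3 exons; box start at chr11:112644217-112644267) had 764.7, 1104 and 1381 normalised reads at the lowest, median and highest day of the control and 860.2, 1531 and 2894 in the knockdown. The ratio was at least 0.90 on each of days 0 to 4, with knockdown libraries from 1816 to 2894 normalised reads. From day 6 it was -0.71, 0.28, -0.23, 0.42 and 0.18, so the excess was an early one. The mean of 0.67 ± 0.52 (SD, n = 9 days), 1.59 times the control, passed with a limma adjusted p of 0.00625. The ratio fell by 0.086 ± 0.020 (SE) per day on the log2 scale, with a limma adjusted p of 0.0256; with day 6 kept it was 0.148, and without day 0, 12 or 14 it was 0.0558, 0.0508 and 0.0547.

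In all, the slope of the ratio on day passed the test for 4 of the 9 Sox genes, Sox2 and Sox6 rising and Sox11 and Sox9 falling, against 14.1% of all genes, 7.36% rising and 6.69% falling. The number was 1 without day 12, 2 without day 14 and 3 on log2(day + 1). Among the other 5 genes the slope of Sox4 had an adjusted p of 0.0832, which was 0.028 without day 8. Counting error was smaller than the spread over days for each of the 7 genes with inferred reads: the standard error from reads alone was from 0.024 to 0.045 for Sox11 and from 0.142 to 0.192 for Sox5, on the log2 scale of the ratio and for counting error only.

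The course within each line was read from the tables of consecutive days joined together, with day 0 of the same line set to 0. In the control line, Sox1 stood at 0.82 on day 4 and -1.62 on day 14, Sox3 at 0.42 and -2.49, and Sox21 at 0.21 and -1.59. Sox2 kept within 1 log2 unit of day 0 until day 12 and was at -1.03 on day 14. All 4 SoxB genes were thus lowest on day 14 of the control. In the knockdown line Sox1 again ended at -1.59, but Sox3 ended at -1.20, Sox21 at -0.76 and Sox2 at 0.55, above its day 0.

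SoxC, SoxD and SoxE genes took other courses. Sox11 was at -0.42 on day 14 of the control and at -2.09 in the knockdown, and Sox4 at 0.06 and 0.88. Sox6 ended at -0.68 in the control and 1.97 in the knockdown. Sox9 ended at -0.23 in the control and -1.25 in the knockdown, having started from the higher level there, and Sox5 at 0.05 and -0.68.

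**Figure D4:**
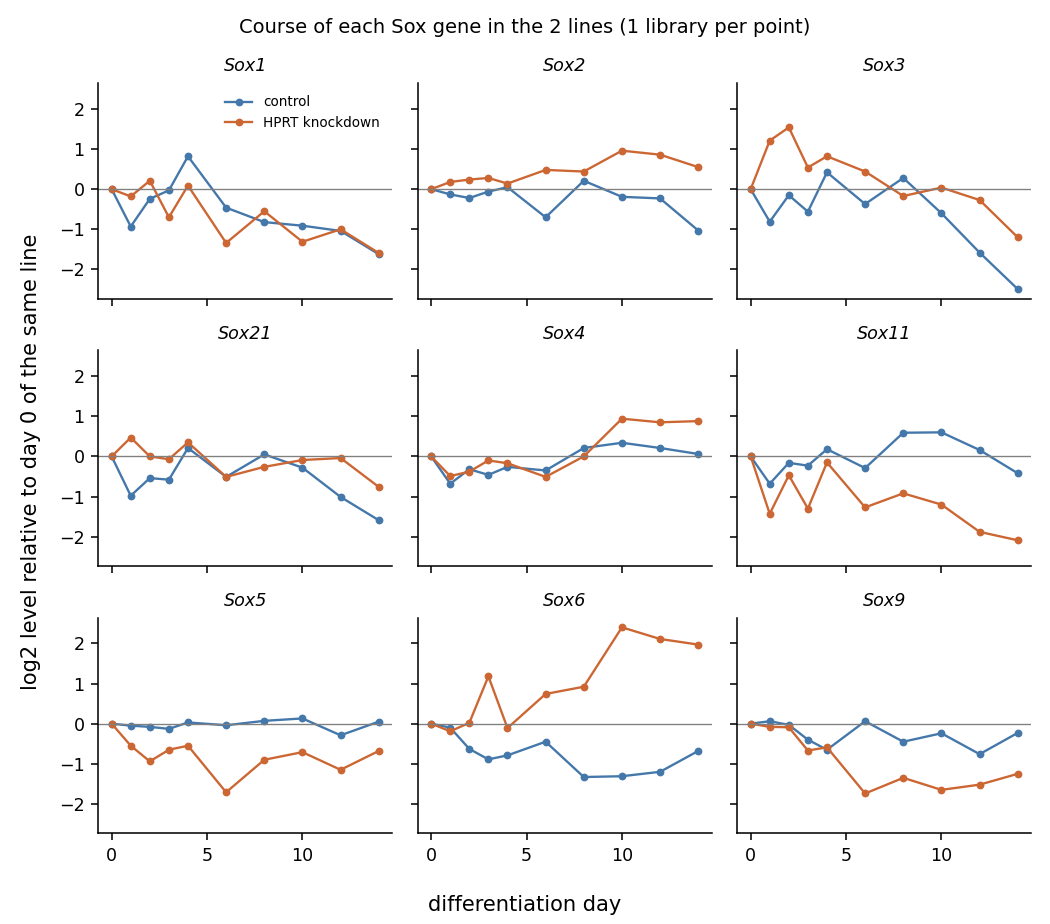
Log2 level of each Sox gene relative to day 0 of the same line against differentiation day, control in blue and HPRT knockdown in orange, with 1 library per point. Sox6 rises to 1.97 on day 14 in the knockdown and ends at -0.68 in the control, Sox11 falls to -2.09 in the knockdown, and Sox1 ends at nearly the same value in both lines.

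Slopes on day within a line were tested by limma over all genes. In the control line 2 of 9 Sox genes were called, against 43.3% of all genes, 19.6% rising and 23.7% falling. Sox1 fell by 0.097 ± 0.035 (SE) per day, with an adjusted p of 0.0489, and Sox4 rose by 0.048 ± 0.017, with 0.0467. For either gene there were 7 days whose omission ended the call, and without day 2, 3, 10 or 12 the number called was 0. In the knockdown line 6 were called, against 12.7% of all genes, 7.34% rising and 5.39% falling. Rising were Sox6 at 0.178 ± 0.034 per day, Sox4 at 0.098 ± 0.019 and Sox2 at 0.054 ± 0.015, with limma adjusted p of 0.0161, 0.0173 and 0.0433. Falling were Sox9 at -0.116 ± 0.020 per day, Sox1 at -0.110 ± 0.022 and Sox3 at -0.128 ± 0.035, with adjusted p of 0.0119, 0.0184 and 0.0442. Leaving out a single day took the call from Sox2 whichever day it was and from Sox3 for each day but day 0. Without day 12, Sox1 and Sox9 were called, and without day 14 Sox9 alone. On log2(day + 1) in place of day, Sox9 alone was called in the knockdown line. On that scale Sox1 and Sox4 lost their calls in the control line, with adjusted p of 0.174 and 0.129, and Sox6 was called there, at -0.302 per unit with 0.0205.

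Steps of at least 2-fold between consecutive days were counted without a test. The control line had 1 such step among 81, the fall of Sox1 from day 4 to day 6 by 2.43-fold, where 6.16% of the steps of all genes were as large. The knockdown line had 11 among 81, against 9.97% of all gene steps. Sox11 made 3 of them, falling 2.7-fold from day 0 to day 1, rising 2.21-fold from day 3 to day 4 and falling 2.17-fold from day 4 to day 6. Sox6 also made 3, rising 2.22-fold into day 3, falling 2.44-fold into day 4 and rising 2.78-fold from day 8 to day 10. Falls into day 6 were made by Sox1, Sox5 and Sox9 as well. Without the steps to and from day 6, there were 7 in the knockdown line and 0 in the control.

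The other Sox genes were given as a list of 10, of which 6 passed the filter. Sox8, a SoxE gene of the glial lineage, was called higher, with a mean ratio of 2.30 ± 0.68 (SD, n = 9 days), a limma adjusted p of 4.71e-05 and the same sign on 9 of 9 days. Sox13, a SoxD gene, was lower at -1.11 ± 0.66, with 0.00145, and Sox17, an endoderm gene, at -1.89 ± 2.40, with 0.0465. Sox10, the SoxE factor of oligodendrocyte precursors, ran from -1.96 to 6.56 over the days and its mean of 1.86 ± 3.32 was not called. Sox7 and the SoxC gene Sox12 were not called either. Sox14, Sox15, Sox18 and Sox30 were below the filter.

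Partners and targets of Sox proteins in neural progenitors formed a list of 24, all of which passed the filter. Among them 4 were higher and 10 lower in the knockdown, with a median ratio of -0.30 against 0.01 for all genes. The 14 called of 24 stand beside 52.9% of all genes, so the count alone does not set the partners apart. Among those with a large mean ratio and the same sign on the 9 days tested was the zinc finger factor Zic2, at -1.20 ± 0.52 (SD, n = 9 days). Gli2 and Gli3, which transmit Hedgehog signals, were at -1.40 ± 0.65 and -1.20 ± 0.52. Pax6, a progenitor factor that pairs with Sox2, was at -1.36 ± 0.74. Higher were the intermediate filament gene Vim at 0.91 ± 0.29, the receptor gene Notch1 at 0.89 ± 0.34 and the homeobox gene Lhx2 at 0.74 ± 0.62. On day 6, which was not tested, Vim was at -0.57 and Notch1 at -0.07, whereas the others of these genes kept their sign. The limma adjusted p of these 7 genes was between 0.00011 and 0.00901. Further genes of the list are named after their values were seen. The POU partners Pou3f2 and Pou3f4 were lower, at -0.77 ± 0.58 and -0.98 ± 0.61, with adjusted p of 0.00519 and 0.00183. The other POU partners listed, Pou3f1 at -0.39 ± 0.62 and Pou3f3 at -0.19 ± 0.49, were not called. Sox2ot, the noncoding transcript whose locus holds Sox2, was higher at 0.77 ± 0.57 with an adjusted p of 0.00485, beside the 0.52 of Sox2. The neural stem cell gene Nes was at 0.24 ± 1.14 and was not called.

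Markers of other cell types were counted in the same fit, in which 26.4% of all genes were called higher and 26.5% lower. The counts rest on the 9 days tested, whereas the ranges of summed levels cover all 10 days, day 6 included. In bulk libraries, fewer cells of a type and less RNA per cell cannot be told apart. Sox10 stood both in the list of other Sox genes and among the oligodendrocyte markers, and Sox7 and Sox17 both there and among the endoderm markers. Of 12 neuron markers that passed the filter, 8 were lower in the knockdown and none was higher, with a median ratio of -1.55. The summed level of the 6 with inferred reads ranged from 5767 to 14748 normalised reads in the control and from 3314 to 8629 in the knockdown. These values stand beside the lower Sox11, and their part in that result was not tested. Of 10 oligodendrocyte markers, 5 were higher and none was lower, with a median of 2.22 and a summed level of 6 genes from 2932 to 7480 in the control and 5886 to 38968 in the knockdown. Among 8 astrocyte markers 7 were higher and 1 lower, with a median of 1.27 and a summed level of 6 genes from 7144 to 16298 in the control and 6868 to 22954 in the knockdown. Their part in the higher Sox5, Sox6 and Sox9 was not tested. All 10 pluripotency markers were lower, with a median of -2.55; 3 of them with inferred reads summed to 1846 to 6140 normalised reads in the control and 235.1 to 6075 in the knockdown. Of 7 cycling cell markers 6 were lower, with a median of -0.97. On day 6, left out of the tests, the median ratio was 0.26 for pluripotency, 0.54 for cycling cell and -0.83 for astrocyte markers. Each of these was opposite in sign to the median over the 9 days tested. The daily median of the neuron markers was at most -0.25 on all 10 days. Fibroblast markers gave 2 lower of 8 and endoderm markers 1 higher and 1 lower of 5, shares at or below those of all genes. Each marker found in every table had reads in at least 1 table; Rbfox3, Afp and Ttr were below the filter, and Map2 was not in every table. Whether any of this takes part in the ratios of Sox1, Sox2, Sox3, Sox21 or Sox4 was not tested.

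The genes whose ratios followed those of 3 Sox genes most closely over the 10 days are given as a description; they were picked for this from 13457 genes, and all share the same libraries. For Sox2 they were 2310016C08Rik, Dhps and Mfsd7b, with Pearson r across days of 0.976, 0.972 and 0.971. Their median ratios over the 10 days were -0.25, -0.13 and -0.49, against 0.32 for Sox2. The likeness was thus in the shape over days and not in the sign. For Sox9 the genes were Irak2 at 0.980, Cpt1a at 0.959 and 1300018I17Rik at 0.955. For Sox11 they were Mab21l1 at 0.972, whose ratio ran from -6.90 to -1.34, Kalrn at 0.964 and Dhx57 at 0.963.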

How the data were processed

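Reads of 50 cycles were aligned by the authors to mm9 with ELAND in CASAVA 1.8.2 and normalised by DESeq, per the study's methods. The deposited values, in 28 tables of 2 libraries, are log2 normalised counts minus the mean of the pair, so that only ratios remain and read totals are not given. Levels for the filter came from the rounding step of the deposited values. Ratios and slopes were tested with limma 3.58.1 in R 4.3.3, Benjamini-Hochberg adjusted over 13457 genes at 0.05, and members and pairs also by exact sign-flip permutation over 9 days. Days were collected in succession from the same line and are not independent of each other.

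Reads were inferred from the ratios of the 20 libraries. Of 1683 genes searched, the 774 that were solved with at least 200 units in every library were used. In these, 29.8% of values were whole multiples of 49 against 2.04% without such a unit. The unit was taken as a 49th of a read. A solution needed whole 49ths in all libraries with at least 3 at whole reads (Sox1, Sox3, Sox21, Sox5 and Sox9), whole 49ths and a rounding step finer than a higher level gives (Sox2), or at least 14 libraries within 0.01 of whole reads (Sox11). The unit and these rules were chosen after seeing the data and revised several times, because earlier versions gave wrong reads on simulated tables. With the last version all genes found were right on the simulated tables used for the revisions, but some were wrong on fresh ones, most often by the rule that gave Sox11. The tables disagreed for Sox4 and Sox6, which have no value.

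Libraries were paired by the day both lines were collected on; deviations from line means correlated across genes with r of -0.0203 on day 0 and 0.133 to 0.428 on the other 8 days tested. Named genes were the 9 members, Hprt, other Sox genes, up to 8 partners by largest mean ratio among those called with the same sign on every day tested, marker lists, and the 3 genes most correlated with each of Sox2, Sox9 and Sox11; 1 of the partners is not reported here. The members and lists were chosen with earlier results of these data known. Coordinates and sequences are from GENCODE M1 and the NCBIM37 genome; the start of Sox1 came from its RefSeq promoter (GRCm38.p6), matched exactly in NCBIM37. Lengths were those of RefSeq genes, or of GENCODE M1 exons for Sox5 and Sox9.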

Additional observations from a re-analysis of the deposited data

Results flagged for a closer look

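The lines differed in their change over days for 4 of the Sox genes, by the limma test of the slope of the ratio, which is the interaction of line and day. The difference in slope, knockdown minus control, was 0.099 per day for Sox2, 0.240 for Sox6, -0.124 for Sox11 and -0.086 for Sox9 on the log2 scale. No day stood apart from the other 9 by Dixon's criterion in any of 27 series examined, the ratios and the courses of each line for the 9 genes; chance alone would mark about 1 series in 20.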

How the results depend on the processing

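No value of a Sox gene or pair that had been called changed its sign under any alternative run. Of slopes not called, 13 values changed sign when a day was left out: the slope of the ratio ranged from -0.025 to 0.008 for Sox1, from -0.040 to 0.028 for Sox3 and from -0.013 to 0.038 for Sox21, and the slope of Sox5 in the control line from -0.004 to 0.012. The count of Sox genes called between the lines was 6; it stayed between 5 and 8 when a day was left out, and all genes called went from 6230 to 7240. Without pairing the libraries of a day (no replicate block), 5 Sox genes and 5763 genes were called, Sox4 being the one lost. The number of Sox genes whose ratio had a slope ranged from 1 to 5 with a day left out, the slopes in the control line from 0 to 2 and those in the knockdown line from 1 to 5. In the control line 1 was called on log2(day + 1), Sox6 in place of both Sox1 and Sox4, 1 with medians set to 0, 1 with the step from day 3 to day 4 taken through the knockdown tables, which was chosen after seeing the data, and 4 under the stricter filter, a log2 count of 8 or more. In the knockdown line 1 was called on log2(day + 1). The 6 pairs called became 5 to 6 with a day left out. Fewer days and tests over fewer genes change the adjustment itself; the cause of other changes was not tested. Of 561 values of single genes and pairs under an alternative, 476 kept their sign and their side of the threshold, 61 lost the call, 11 gained one and 13 changed sign. The limits are the single library per line and day, the unknown read totals, and levels that rest on inferred reads.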
